A study of Homo sapiens with 8 samples.

Results

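The immunoglobulin heavy chain locus (IGH, chromosome 14) and the kappa (IGK, chromosome 2) and lambda (IGL, chromosome 22) light chain loci were examined for open chromatin in 2 human myeloma cell lines. Members were all peaks of the deposited table that carried an IGH, IGK or IGL gene symbol and lay on the chromosome of that locus, which gave 122 of 62528 peaks. Of these, 65 belonged to IGH, 19 to IGK and 38 to IGL. The IGK and IGL counts each included 1 orphan variable segment that lies on the same chromosome outside the main locus. Another 2 peaks with IGKV orphan symbols on chromosome 22 and 7 peaks with immunoglobulin symbols on other chromosomes were left out.

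The assay was ATAC-seq, where a transposase cuts and tags DNA that is not covered by nucleosomes. JJN3 and KMS11 are established lines derived from multiple myeloma, a cancer of antibody-secreting plasma cells. Each line was exposed for 48 h to the solvent DMSO, to 200 nM pomalidomide, to 40 nM GNE-781 or to both agents at these doses, with 1 library per line and treatment. Pomalidomide makes the ligase receptor cereblon destroy the lymphoid factors IKZF1 (Ikaros) and IKZF3 (Aiolos). GNE-781 occupies the bromodomain of EP300 and CREBBP, a pair of histone acetyltransferases. The study's design text also names BATF and eGFP overexpression, which the labels of these 8 libraries do not give. Both lines are known to carry translocations that join IGH to other chromosomes.

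An antibody gene is assembled in the B cell lineage from separate variable, diversity and joining segments by V(D)J recombination, which deletes or inverts the DNA between the joined segments. In IGH the constant genes lie on one side of the joining segments and the diversity and variable segments on the other, an intronic enhancer sits between the joining segments and IGHM, and a 3′ regulatory region lies downstream of each of IGHA1 and IGHA2. Class switching later deletes constant genes between IGHM and the gene that is used. A plasma cell expresses 1 heavy and 1 light chain at a very high level. Counts in peaks measure the number of DNA copies and their openness together, so lost DNA and closed chromatin cannot be told apart here.

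The libraries held 1366628 to 3218581 counts in JJN3 and 2981408 to 5435673 in KMS11. Levels are given as CPM, counts divided by the TMM-scaled library size and multiplied by 1e6, and 3 counts corresponded to 1.0 to 2.25 CPM in a JJN3 library and to 0.534 to 0.97 CPM in a KMS11 library. A line mean is over its 4 libraries, which differ in treatment, so its SD covers the treatments and the spread between libraries. The labels do not say that any libraries came from separate cultures. The promoter of SDC1, which encodes the plasma cell surface protein CD138, had 47.8 CPM in JJN3 and 45.5 CPM in KMS11. Of 10 plasma cell marker symbols, 8 named a peak, and JCHAIN and IGJ in that list are names of the same gene. Among 32 peaks at these markers, 5 were higher in KMS11 and 1 in JJN3 (adjusted p under 0.05 by edgeR, at least 2-fold). Over all peaks tested, 15.8% were higher in KMS11 and 16.1% in JJN3. Both agents together lowered 3 of the 32 (9.38%) and raised 0, against 2.67% and 2.11% of all peaks. All 3 were SDC1 peaks, with log2 changes of -1.09, -1.38 and, at the promoter, -0.69 (adjusted p = 0.00548, 0.00487 and 0.0253 by edgeR). Among mature B cell markers, PAX5 and CR2 named a peak, and MS4A1 did not. Of 9 peaks at these 2 genes, 4 were higher in KMS11 and 0 in JJN3, against 15.8% and 16.1% of all peaks. Their median log2 difference was -0.95 and their sum 69.3 to 198 CPM per library. Summed over their peaks, markers of T cells reached 76.9 to 167 CPM and markers of myeloid cells 21.0 to 46.0 CPM per library. Of 9 T cell marker peaks, 3 were higher in JJN3 and 0 in KMS11. Both agents together raised 3 of the 9 and lowered 0 (adjusted p under 0.05 by edgeR), against 2.11% and 2.67% of all peaks. The 3 raised peaks all carried the symbol TRAC, and none was a promoter peak. The TRAC-labelled peaks chr14:22336277-22336437 and chr14:22550088-22550516 gave -0.37 and -0.10 in log2 (adjusted p = 0.859 and 0.935). Peaks at CD2, CD3E and CD8A were not called under both agents. The part of these T cell and myeloid markers in the results was not tested.

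The main difference at these loci was between the lines and lay within IGH. Of 120 members with a mean of at least 2 CPM, 51 were higher in KMS11 and 5 were higher in JJN3, at an adjusted p under 0.05 and a change of at least 2-fold. Over all 62234 peaks tested, 15.8% were higher in KMS11 and 16.1% in JJN3. By part, 41 of the 51 peaks higher in KMS11 were on the variable side of IGH, 5 were in IGK and 5 in IGL, and 4 of the 5 peaks higher in JJN3 were on the constant side of IGH. The median log2 difference (JJN3 minus KMS11) was 0.23 over the 20 constant-side peaks, -7.00 over the 43 variable-side peaks that passed the filter, -0.57 in IGK, -0.61 in IGL and -0.08 over all peaks. With the variable-side peaks that had no JJN3 count set to the bound that 3 counts allow, their median was -4.34. Many variable-side peaks passed the filter, and entered the joint peak set, through KMS11 alone, so their count is a description.

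**Figure D1:**
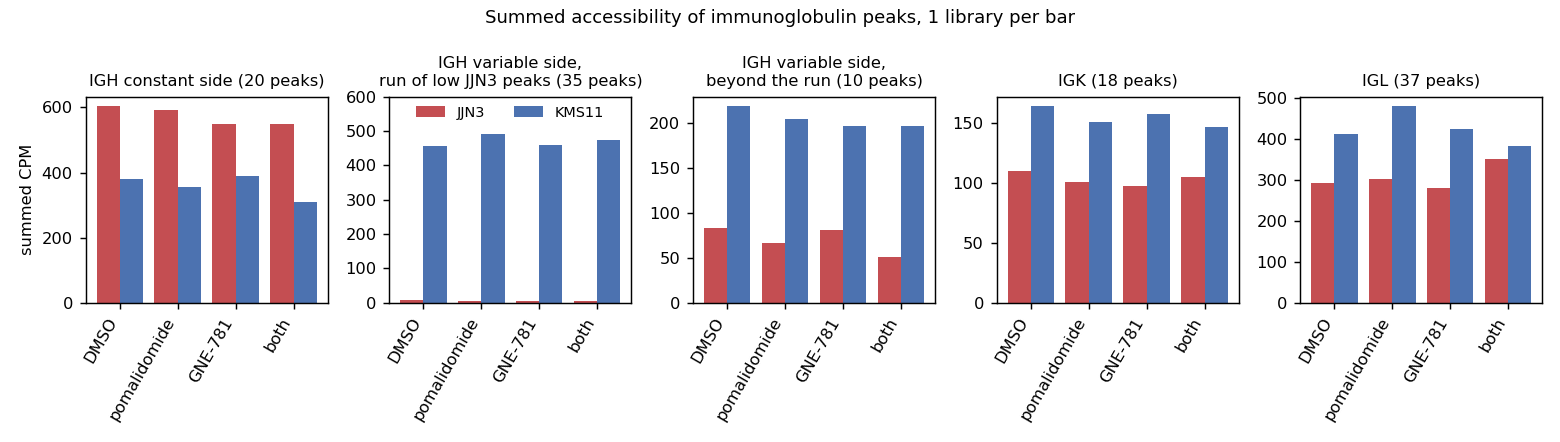
Summed CPM (vertical axis, from 0) of the peaks in each part of the loci for the 4 treatments (horizontal axis), with 1 library per bar. Among 35 variable-side IGH peaks JJN3 summed to 3.85 to 8.27 CPM and KMS11 to 455 to 492 CPM, whereas on the constant side JJN3 was the higher line under every treatment.

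In summed accessibility, the constant side of IGH reached 603, 592, 548 and 549 CPM in JJN3 under DMSO, pomalidomide, GNE-781 and both agents, and 381, 357, 388 and 308 CPM in KMS11 in the same order. The 4 JJN3 libraries were all above the 4 KMS11 libraries, and the ratio of the means was 1.6. The variable side showed the opposite order, with 91.7, 71.0, 84.6 and 55.8 CPM in JJN3 and 674, 697, 657 and 670 CPM in KMS11, an 8.91-fold difference of the means. The 75 flanking peaks within 1 Mb of IGH, which carry no immunoglobulin symbol of the locus, summed to 1570 ± 81.5 CPM in JJN3 and 1540 ± 66.5 CPM in KMS11 (SD, n = 4). The 65 of them outside the locus span summed to 1470 ± 75.4 CPM in JJN3 and 1430 ± 61.5 CPM in KMS11 (SD, n = 4), and of the 63 that passed the filter 7 were higher in JJN3 and 11 in KMS11. IGK summed to 103 ± 5.53 CPM in JJN3 and 155 ± 7.37 CPM in KMS11 (SD, n = 4), a 1.5-fold difference, and its 35 flanking peaks differed 1.38-fold in the same direction. IGL summed to 307 ± 31.2 CPM in JJN3 and 425 ± 40.5 CPM in KMS11 (SD, n = 4), a 1.39-fold difference, and its 86 flanking peaks differed 1.35-fold. The ratios of the light chain peaks thus lay close to those of their flanking peaks, and the ratio of the variable side of IGH did not. The 65 IGH flanking peaks outside the span all lie on its constant side, so none beyond the variable side entered this comparison. Among them, the ELK2BP peaks described below had 36.3, 207 and 134 CPM in JJN3 and 14.3, 76.8 and 44.7 CPM in KMS11. The flanking peaks outside the IGK span all lie on the IGKC side. The sums in this paragraph have no test of their own.

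**Figure D2:**
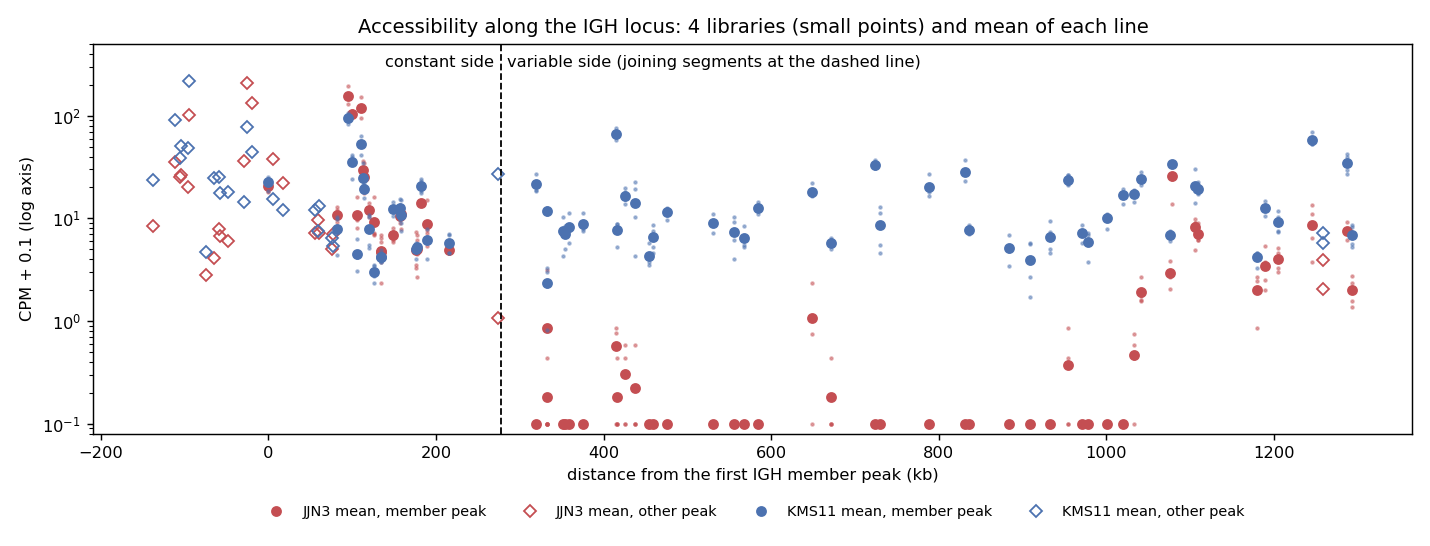
CPM plus 0.1 on a log axis against distance in kb from the first IGH member peak, with small points for libraries, large points for line means and open diamonds for other peaks in and beside the locus. JJN3 points drop to the bottom of the plot just before the joining segments and lie nearer to the KMS11 points, but mostly below them, over the last 10 members of the variable side.

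Within IGH, the low JJN3 values formed 1 uninterrupted stretch. It held 36 neighbouring peaks of the table, each at least 8-fold lower in JJN3, from chr14:105859608-106627787 (GRCh38, 768 kb), and 35 of the 36 were members. Together these peaks held 48 counts in the 4 JJN3 libraries and 8606 in the 4 KMS11 libraries. Elsewhere in the genome the longest stretch defined in the same way held 4 peaks lower in JJN3, and the longest with KMS11 lower held 5. Single peaks past this threshold were not rare, with 386 lower in JJN3 and 773 lower in KMS11. The 35 members summed to 5.20 ± 2.06 CPM in JJN3 and 470 ± 16.5 CPM in KMS11 (SD, n = 4), 90.3-fold apart. The 10 members beyond the stretch, towards the chromosome end, summed to 70.6 ± 14.8 CPM in JJN3 and 205 ± 10.3 CPM in KMS11 (SD, n = 4), 2.9-fold apart, and 8 of them were called higher in KMS11. Their log2 differences ranged from -2.88 to -0.45 with a median of -1.38, and did not shrink steadily with distance from the stretch. The lowest was at IGHVIII-76-1 (chr14:106830688-106831778), near the far end, with 13.5, 3.67, 10.9 and 6.3 CPM in JJN3 and 69.4, 53.4, 54.7 and 53.1 CPM in KMS11. The threshold of 8-fold was set with the values known, and the stretch is a description.

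The peaks on either side of both edges of the stretch were compared. Its first peak, chr14:105859608-105860233, carries the symbol AC246787.4 in the authors' annotation and lies between the RefSeq positions of IGHM and the joining segments. It had 1, 5, 0 and 3 counts in JJN3 under DMSO, pomalidomide, GNE-781 and both agents, and 75, 127, 95 and 177 in KMS11 (log2 difference -4.58 ± 0.34, SE). The next peak towards the constant genes, chr14:105801234-105801563 with the symbol IGHG3, was not called, at 4.51 to 5.33 CPM in JJN3 and 4.5 to 6.94 CPM in KMS11 (log2 difference -0.20 ± 0.33, SE, adjusted p = 0.633). The table holds no peak between these, so the edge is not placed more closely. At the other edge, the last peak inside the stretch lay over IGHV4-59 (chr14:106627041-106627787), with 1.5, 1.67, 2.56 and 1.45 CPM in JJN3 and 22.3, 28.1, 21.0 and 24.8 CPM in KMS11 (log2 difference -3.78 ± 0.31, SE). The first peak outside, chr14:106661715-106661999, had 1.94 to 3.76 CPM in JJN3 and 5.95 to 7.44 CPM in KMS11 (log2 difference -1.28 ± 0.37, SE, adjusted p = 0.00251). A neighbour of it at chr14:106663862-106664379, which is 1659 bp from the IGHV3-65 segment, was the variable-side member with the smallest difference, at 31.6, 24.0, 33.3 and 13.6 CPM in JJN3 and 32.3 to 34.9 CPM in KMS11 (log2 difference -0.45 ± 0.17, SE, adjusted p = 0.0221). It was also the only variable-side member at which the lines overlapped, and 44 of the 45 had all JJN3 libraries below all KMS11 libraries, against 21.3% of all peaks.

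Absence of counts was common in JJN3 across this stretch. Of the 45 variable-side members, 24 had no count in any JJN3 library, whereas the lowest KMS11 sum over 4 libraries was 36. Over all 62528 peaks, 31 had no JJN3 count. Another count gave 62 peaks with at most 5 counts in JJN3 and at least 100 in KMS11, of which 29 were IGH members. At the 24 members without a JJN3 count, KMS11 held 70 to 577 counts, so that KMS11 was at least 10.8-fold to at least 88.8-fold higher, taking 3 counts over the 4 JJN3 libraries as the floor.

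The 5 largest fitted line differences in IGH were at peaks with no JJN3 count, and the fitted values of such peaks depend on the prior count and are no bounds. The peak over IGHVIII-26-1, a variable pseudogene (chr14:106308851-106309468), had 36.8, 30.9, 30.7 and 34.9 CPM in KMS11 under the 4 treatments in the order above, at least 88.8-fold higher than JJN3. The peak over the pseudogene IGHVIII-38-1 (chr14:106417382-106418050) had 36.8, 27.4, 26.8 and 22.8 CPM in KMS11, at least 74-fold higher. Both lie inside the variable array, far from the joining segments. The peak chr14:105904784-105905961, 73 bp from the diversity segment IGHD3-9, had 18.4, 27.2, 18.8 and 21.5 CPM in KMS11, at least 58-fold higher. The peaks over the variable genes IGHV4-34 (chr14:106373373-106374154) and IGHV4-55 (chr14:106605743-106606424) were at least 55.5-fold and at least 44.1-fold higher in KMS11. The strongest variable-side peak in KMS11, chr14:105999498-106001058, lies 476 bp from the segment IGHVIII-2-1 and had 69.1, 62.4, 76.3 and 58.1 CPM there. It held 4 counts in JJN3 against 1120 in KMS11, a ratio of 129 (95% counting interval 50.3 to 475).

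The variable-side peaks of KMS11 sat mostly on gene segments. By RefSeq, 29 of the 45 members (64.4%) overlapped an immunoglobulin segment, against 1 of 20 on the constant side, 6 of 18 in IGK and 6 of 37 in IGL. The 9 members named for the IGHVIII pseudogene family had a median KMS11 level of 19.2 CPM, and the other 36 had a median of 9.07 CPM. Peaks differ in width and these levels are per peak. Per kb of peak, IGHVIII-26-1 had 53.9 CPM, IGHVIII-76-1 52.8 CPM and IGHVIII-38-1 42.5 CPM in KMS11, among the 10 highest of all members. Variable segments of 1 family are similar in sequence, so reads may have been placed on the wrong copy or lost, and this touches every value given for a single segment.

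Symbols of constant genes did not always mark constant genes. All 9 peaks labelled IGHM, and 2 of the 18 labelled IGHG1, lie on the variable side, and none of the 9 overlaps the IGHM gene as RefSeq places it (chr14:105851966-105856217). The transcript that the authors' deposited table gives for these 9 spans chr14:105854287-106235572, which reaches into the variable side. The IGHM-labelled peaks summed to 1.43 ± 1.62 CPM in JJN3 and 152 ± 7.22 CPM in KMS11 (SD, n = 4). They describe the diversity and variable region, not the gene for the mu constant chain.

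**Figure D3:**
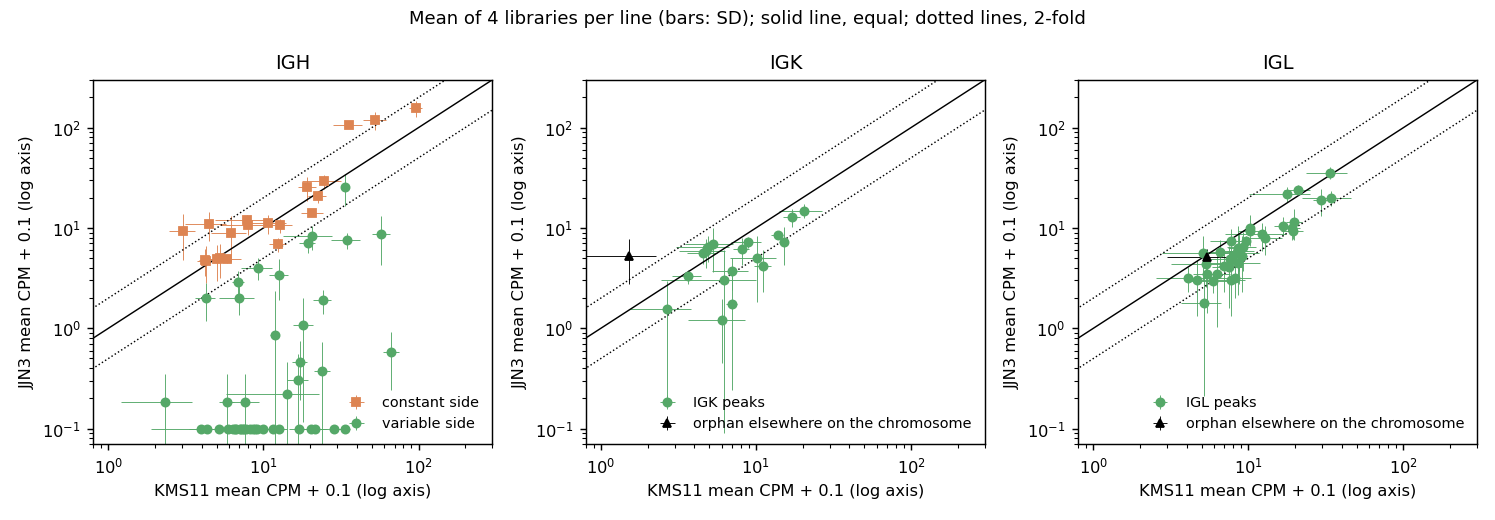
Mean CPM plus 0.1 of each member in KMS11 (horizontal) and JJN3 (vertical) on log axes, with SD bars over 4 libraries; the solid line marks equality and the dotted lines 2-fold. Constant-side IGH peaks lie around and above equality, most variable-side peaks lie at the bottom, and IGK and IGL peaks lie along and below the line of equality.

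On the constant side, the highest members of all loci lay 3′ of IGHA1 and carried the symbol IGHG1. The peak chr14:105680021-105681138 had 129, 196, 150 and 151 CPM in JJN3 and 83.6, 107, 97.0 and 95.1 CPM in KMS11. Every JJN3 library was above every KMS11 library, but the difference stayed under 2-fold (log2 difference 0.70 ± 0.12, SE, adjusted p = 6.49e-07). The peak chr14:105685907-105686826 had 110, 109, 98.1 and 103 CPM in JJN3 and 41.2, 37.3, 39.1 and 24.2 CPM in KMS11 (log2 difference 1.60 ± 0.13, SE, adjusted p = 3.49e-16). The peak chr14:105696022-105697036, 10132 bp from IGHA1, had 152, 113, 119 and 94.1 CPM in JJN3 and 62.9, 51.5, 54.0 and 41.5 CPM in KMS11 (log2 difference 1.18 ± 0.12, SE, adjusted p = 1.28e-12). The lines did not overlap at either peak. Weaker peaks at chr14:105692217-105692384 (log2 difference 1.36 ± 0.29, SE, adjusted p = 7.25e-05) and chr14:105712011-105712293 (log2 difference 1.62 ± 0.34, SE, adjusted p = 4.32e-05) were also higher in JJN3. The latter lies on the 5′ side of IGHA1.

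Peaks downstream of IGHA2 behaved alike, although they carry the symbol ELK2BP and are no members. The peaks chr14:105557260-105557491, chr14:105559713-105560837 and chr14:105566090-105566979 were higher in JJN3 by 1.34, 1.43 and 1.62 in log2, with adjusted p-values of 1.52e-09, 9.44e-17 and 1.04e-16. The regions 3′ of IGHA1 and IGHA2 are duplicates of each other, so reads may have been divided between them and the 2 sets of values are not independent. The peak next to IGHA2 itself (chr14:105585877-105586244, 693 bp away) had 17.9 to 23.3 CPM in JJN3 and 18.5 to 25.1 CPM in KMS11 and was not called (adjusted p = 0.574). Of the non-member peaks between IGHA2 and IGHGP, on the 5′ side of IGHA2, only chr14:105590752-105591298 was called. It was higher in JJN3 by 1.34 in log2 (adjusted p = 1.08e-09). The remaining 14 constant-side members, with the symbols IGHGP, IGHG1 and IGHG3, ranged from -0.80 to 0.73 in log2 difference, and none was called. They include peaks 3′ of IGHA1, at chr14:105699100-105699683, chr14:105699816-105700298 and chr14:105706144-105706392. Of the 14, only chr14:105768280-105769069 overlaps a constant gene by RefSeq, which is IGHG3. That peak had 13.5 to 14.5 CPM in JJN3 and 17.4 to 24.1 CPM in KMS11 (log2 difference -0.52 ± 0.20, SE, adjusted p = 0.0274).

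The kappa locus on chromosome 2 holds IGKC, its joining segments and 2 inverted copies of the variable array, proximal and distal, whose segments are nearly identical. Among its 18 peaks, 5 were higher in KMS11, 2 on the constant and proximal side and 3 among distal copies. That is 27.8%, against 15.8% of all peaks and 34.3% of the 35 flanking peaks (12 of 35). The largest difference was at chr2:89106485-89106804, labelled IGKC but 6151 bp from the segment IGKV1-16, with 0, 1.67, 1.28 and 1.45 CPM in JJN3 and 8.80, 7.07, 4.2 and 3.74 CPM in KMS11 (log2 difference -2.21 ± 0.48, SE, adjusted p = 9e-05). All 5 peaks with the IGKC symbol lie among variable segments, and the IGKC gene itself is overlapped by a peak labelled IGKV3-11. Its neighbour chr2:88858056-88858485, 373 bp from IGKC, had 5.26, 4, 8.98 and 10.2 CPM in JJN3 and 14.2 to 16.4 CPM in KMS11 (log2 difference -1.13 ± 0.25, SE, adjusted p = 0.000141). All KMS11 libraries were above all JJN3 libraries there. Without JJN3 or KMS11 treated with pomalidomide its difference fell below 2-fold, to -0.89 at the least. The distal peaks over IGKV1D-17 (chr2:90082751-90083331), over IGKV1D-8 (chr2:90220787-90221399) and 5082 bp from IGKV1D-8 (chr2:90226464-90226863) had log2 differences of -1.48, -1.09 and -1.86, with adjusted p-values of 3.82e-05, 0.00321 and 0.000134. The second of them lost its call without any one of 4 libraries, those treated with pomalidomide or GNE-781 alone in either line. The 2 strongest kappa peaks, over IGKV3-20 (chr2:89142633-89143593) and IGKV3-15 (chr2:89085254-89086047), were not called between the lines, each at a log2 difference of -0.43 (adjusted p = 0.0694 and 0.0857).

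The orphan peak labelled IGKV1OR2-3 (chr2:97067714-97067914), far from the locus, was the only kappa member higher in JJN3, with 3.01, 8.66, 4.49 and 4.36 CPM against 1.04, 2.14, 1.94 and 0.534 CPM in KMS11 (log2 difference 1.92 ± 0.47, SE, adjusted p = 0.000456). The orphan IGLVIVOR22-1 peak on chromosome 22 was not called (log2 difference -0.09 ± 0.35, SE, adjusted p = 0.846).

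In the lambda locus on chromosome 22, where each constant gene has its own joining segment, 5 of 37 peaks (13.5%) were higher in KMS11 and none in JJN3. This share was near the 15.8% of all peaks and the 17.4% of the flanking peaks. The most significant lay over IGLV6-57 (chr22:22195282-22196016), with 7.52 to 11 CPM in JJN3 and 16.2 to 23.4 CPM in KMS11 (log2 difference -1.07 ± 0.22, SE, adjusted p = 5.13e-05). The lines did not overlap, and the difference was close to the 2-fold threshold, which it missed without the JJN3 DMSO library (-0.98). Another lay over IGLV3-4 (chr22:22857831-22858122, log2 difference -1.36 ± 0.46, SE, adjusted p = 0.0106), where JJN3 had 0 to 3.39 CPM and KMS11 3.62 to 6.79 CPM. The other 3 carried the symbol IGLL5 but lay 1295 to 1618 bp from variable segments, with log2 differences of -1.03, -1.27 and -1.41 (adjusted p = 0.0204, 0.00173 and 0.00057). The IGLV3-4 peak lost its call without either library treated with GNE-781 alone, and the IGLL5-labelled peak at chr22:22770211-22770427 lost it in 5 of 8 such omissions.

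None of the 12 IGLL5-labelled peaks overlapped that gene, which encodes an immunoglobulin lambda-like protein, and their log2 differences ranged from -1.41 to 0.34. The strongest lambda peaks lay 3′ of the last constant gene, IGLC7, on the side where the lambda enhancer is known to lie. Of these, chr22:22935269-22936127, 12356 bp from IGLC7, had 41.3, 36.7, 29.5 and 34.4 CPM in JJN3 and 40.6, 42.9, 28.8 and 21.9 CPM in KMS11, with the lines overlapping (log2 difference 0.11 ± 0.16, SE, adjusted p = 0.586). The peak chr22:22928627-22929139, 5714 bp from IGLC7, had 10.7 to 23.3 CPM in JJN3 and 25.6 to 32.6 CPM in KMS11 and stayed under 2-fold (log2 difference -0.64 ± 0.18, SE, adjusted p = 0.00219). The peak over the variable gene IGLV3-9 (chr22:22818854-22819702) had 16.7 to 23.3 CPM in JJN3 and 22.6 to 50.2 CPM in KMS11 (log2 difference -0.77 ± 0.17, SE, adjusted p = 0.000134).

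Treatment moved few immunoglobulin peaks. With the line as a block, pomalidomide changed 0 of 120 members at an adjusted p under 0.05 by edgeR, against 1.25% of all peaks, and 11 members had an unadjusted p under 0.05. GNE-781 changed 0 of 120, against 0.0209% of all peaks, with 4 at an unadjusted p under 0.05. Both agents together lowered 3 members and raised none, or 2.5% of 120, against 2.67% of all peaks lowered and 2.11% raised, so the share was near the background. DESeq2 called 0 members under pomalidomide and 0 under GNE-781, with 2 and 0 at an unadjusted p under 0.05. The share of all peaks called by DESeq2 was not taken, so its counts here and below have no background beside them. At variable-side peaks without JJN3 counts, a treatment effect rests on the KMS11 libraries alone. The median log2 change over the 120 members was 0.01 with pomalidomide, 0.04 with GNE-781 and 0.06 with both, beside 0.02, 0 and 0 over all peaks.

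Summed over a part of the loci, most treated libraries stayed near their DMSO library, with the variable side of IGH in JJN3 as an exception. Under both agents the constant side of IGH had 0.91 of its DMSO level in JJN3 and 0.808 in KMS11, and IGK had 0.948 and 0.897. IGL went in opposite directions, at 1.21 in JJN3 and 0.926 in KMS11. In JJN3, 26 of 37 IGL peaks were above DMSO under both agents with a median log2 ratio of 0.39, and in KMS11 20 of 37 were, with a median of 0.08. Over all peaks these medians were 0. The variable side of IGH had 0.995 of its DMSO level in KMS11 under both agents, 1.03 with pomalidomide and 0.975 with GNE-781. In JJN3 it had 0.608 under both agents, 0.774 with pomalidomide and 0.923 with GNE-781. These JJN3 libraries held 115, 213 and 132 counts there, against 122 under DMSO. Each ratio compares 1 library with 1 and has no replicate check, and the difference between the lines in IGL was not tested as a sum.

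**Figure D4:**
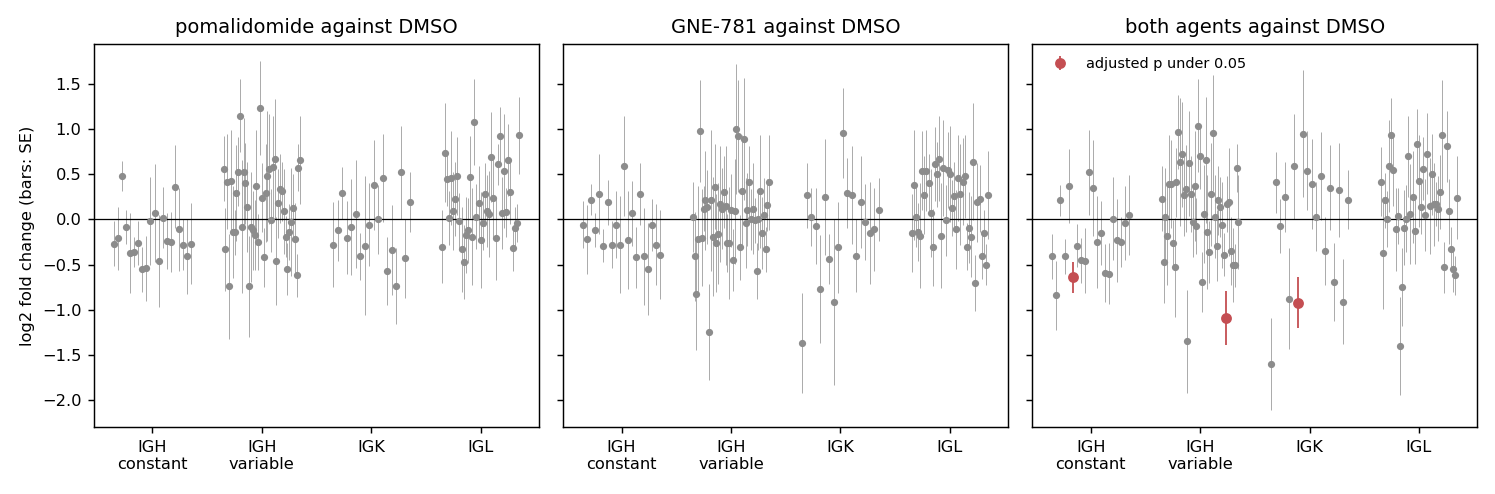
Log2 fold change against DMSO (vertical axis; bars, SE) of every member that passed the filter, in chromosomal order within each part, for pomalidomide, GNE-781 and both agents. The 3 members called under both agents, in red, lie at -0.64, -1.09 and -0.92, within the range of the peaks that were not called.

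Under both agents the peak 3′ of IGHA1 at chr14:105696022-105697036 fell in both lines, from 152 to 94.1 CPM in JJN3 and from 62.9 to 41.5 CPM in KMS11 (log2 change -0.64 ± 0.17, SE, adjusted p = 0.0175). Each agent alone gave values between these, 113 and 119 CPM in JJN3 and 51.5 and 54.0 CPM in KMS11. An ELK2BP peak 3′ of IGHA2, chr14:105566090-105566979, changed by -0.69 ± 0.19 in log2 (SE, adjusted p = 0.0181). It lies in the region duplicated on the IGHA1 side. It is farther from IGHA2 than the called peak is from IGHA1, so the 2 are not matched by position. The ELK2BP peaks chr14:105557260-105557491 and chr14:105559713-105560837 of the same region were not called under both agents. Their log2 changes were 0.04 and 0.12 (adjusted p = 0.967 and 0.774). The peak 297 bp from IGHVIII-67-3 (chr14:106691649-106692317) fell from 9.77 to 4.85 CPM in JJN3 and from 30.5 to 14.1 CPM in KMS11 (log2 change -1.09 ± 0.30, SE, adjusted p = 0.0209). With pomalidomide or GNE-781 alone it had 9 and 8.98 CPM in JJN3 and 18.4 CPM in both KMS11 libraries. The peak over the kappa variable gene IGKV3-20 (chr2:89142633-89143593) fell from 17.3 to 11.6 CPM in JJN3 and from 28.2 to 13.2 CPM in KMS11 (log2 change -0.92 ± 0.28, SE, adjusted p = 0.0378). These 3 calls were lost by DESeq2, which called 0 members, and without the KMS11 library given both agents, which also left 0. All 3 were also lost without the JJN3 library given both agents and without the KMS11 DMSO library, and in each of these fits 1 other member was called, labelled IGLC7 in the first and IGHM in the second. The IGKV3-20 call was also lost without the KMS11 pomalidomide library and with scaling by library totals alone, and the IGHA1-side call without the JJN3 DMSO library.

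**Figure D5:**
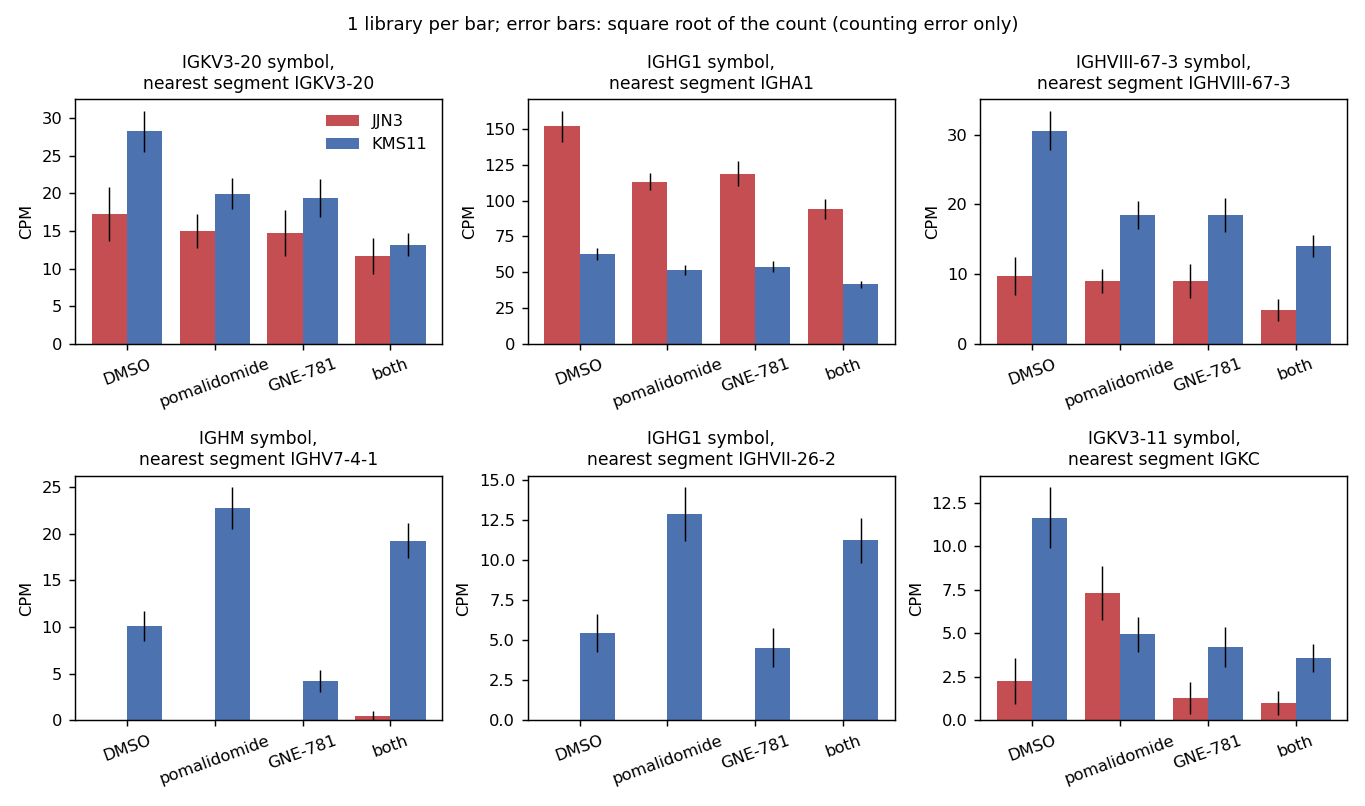
CPM (vertical axis, from 0) under the 4 treatments at 6 peaks in JJN3 and KMS11, 1 library per bar, with error bars for counting error only. The top row shows the 3 members lowered under both agents, and the bottom row shows 2 variable-side IGH peaks with almost no JJN3 counts, and the peak over IGKC.

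The peak over the constant kappa gene IGKC (chr2:88857269-88857451) had 11.6, 4.93, 4.2 and 3.56 CPM in KMS11 and 2.25, 7.33, 1.28 and 0.97 CPM in JJN3 under DMSO, pomalidomide, GNE-781 and both agents. Its change under both agents was -1.60 ± 0.51 in log2 and missed the threshold (SE, adjusted p = 0.0523). Peaks next to it on the 3′ side of IGKC, where kappa enhancers are known to lie, carry the symbol AC096579.13 and are no members. Of the 35 peaks flanking the kappa locus, 5 (14.3%) were lower under both agents and none higher, against 2.67% and 2.11% of all peaks. They included chr2:88845552-88846240, chr2:88855531-88856227 and chr2:88856474-88856776, with log2 changes of -1.06, -1.37 and -1.93 (adjusted p = 0.0478, 0.00382 and 0.00921). At the last of these KMS11 had 53, 30, 8 and 15 counts and JJN3 5, 13, 7 and 5 counts in the order of treatments above. The log2 ratio to DMSO under both agents was -2.19 in KMS11 and -0.45 in JJN3, from 1 library each. For either agent, 0 of the 35 flanking peaks were called for a difference between the lines by edgeR, with 4 for pomalidomide and 1 for GNE-781 at an unadjusted p under 0.05. In the fit with line-specific effects described below, pomalidomide in KMS11 lowered 3 of the 35 (8.57%) and raised 1 (2.86%), against 1.83% and 4.59% of all peaks. GNE-781 in KMS11 lowered 3 (8.57%), against 1.35%, and raised 0. In JJN3 it called 0 for either agent, against 1.77% and 0.172% of all peaks.

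Among the members with the lowest unadjusted p under a single agent, the IGHG1-labelled peak chr14:105680021-105681138 gave a log2 change of 0.48 ± 0.17 with pomalidomide (SE, adjusted p = 0.156). The IGLL5-labelled peak chr22:22820308-22820789, 556 bp from IGLV3-9, gave 0.92 ± 0.33 (SE, adjusted p = 0.192). With GNE-781 the IGKC peak gave -1.37 ± 0.55 (SE, adjusted p = 0.611) and the IGLL5-labelled peak chr22:22865507-22866230 gave -0.70 ± 0.31 (SE, adjusted p = 0.668). The IGHM-labelled peak chr14:106022334-106023370 was among them for each agent alone, at 1.15 ± 0.40 with pomalidomide (SE, adjusted p = 0.172) and at -1.25 ± 0.53 with GNE-781 (SE, adjusted p = 0.649).

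That last peak lies 1775 bp from IGHV7-4-1 and had 39, 106, 13 and 108 counts in KMS11 under DMSO, pomalidomide, GNE-781 and both agents, or 10.1, 22.7, 4.2 and 19.2 CPM, and 1 count in JJN3 in all. Both KMS11 libraries with pomalidomide were above both without it. A further fit with drug effects specific to each line, in which the agents add, was chosen after seeing the data. For pomalidomide in KMS11 it called 4 members against 6.41% of all peaks, 3 of them higher (4.59% of all peaks) and 1 lower (1.83%). For GNE-781 in KMS11 it called 2 members, both lower, against 1.57% of all peaks called and 1.35% lower. In JJN3 it called 0 members for either agent, against 1.77% and 0.172% of all peaks. The IGHV7-4-1 peak rose with pomalidomide by 1.56 ± 0.27 in log2 (SE, adjusted p = 9.96e-06). A second variable-side peak, IGHG1-labelled and 411 bp from IGHVII-26-2 (chr14:106315371-106315842), rose by 1.27 ± 0.34 (SE, adjusted p = 0.00832), with 5.44, 12.9, 4.53 and 11.2 CPM in KMS11 and no count in JJN3. The IGLV3-9 peak rose by 0.63 ± 0.18 (SE, adjusted p = 0.0162), with 30.3, 50.2, 22.6 and 32.1 CPM. The IGHG1-labelled peak chr14:105706144-105706392, 776 bp from IGHA1, fell by 1.00 ± 0.31 (SE, adjusted p = 0.0292), with 10.1, 5.36, 10.7 and 4.99 CPM.

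GNE-781 lowered the IGLL5-labelled peak chr22:22865507-22866230 in KMS11 by 1.06 ± 0.22 in log2 (SE, adjusted p = 0.0021), with 20.2, 26.8, 11.3 and 11.6 CPM under the 4 treatments. It also lowered the IGLC7-labelled peak 3′ of the lambda locus, chr22:22935269-22936127, by 0.75 ± 0.18 (SE, adjusted p = 0.00918), from 40.6 CPM under DMSO to 28.8 CPM under GNE-781. In JJN3 the first of these had 26.3, 20.3, 18.0 and 22.8 CPM. The test of the difference between the lines called 0 of 120 members for either agent by edgeR, against 0.0675% of all peaks for pomalidomide and 0.00964% for GNE-781, with 11 and 10 members at an unadjusted p under 0.05. None of these effects was therefore shown to differ between the lines, and at peaks without JJN3 counts that difference could not be estimated.

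Genes that act on the immunoglobulin loci were taken from a list of 37 symbols, of which 28 named a peak, and 139 peaks passed the filter. The list gave both names of the same gene for JCHAIN (IGJ) and TENT5C (FAM46C). The list held transcription factors, recombination and switching enzymes, and receptor and secretion components. Between the lines 37 of the 139 peaks were higher in JJN3 and 20 in KMS11, 41% in all against 31.9% of all peaks. Much of the JJN3 count came from POU2AF1 and FAM46C. Each of the 17 POU2AF1 peaks except chr11:111427538-111427819 was called higher in JJN3, as were all 5 at FAM46C. Under both agents 6 were higher and 7 lower, 9.35% against 4.79% of all peaks. At IKZF3, which encodes the factor Aiolos that pomalidomide degrades, 3 of 9 peaks rose under both agents, by 0.67, 0.91 and 1.22 in log2 (adjusted p = 0.0364, 0.0085 and 0.0171). At POU2AF1, a coactivator of octamer-dependent immunoglobulin promoters, 1 of 17 peaks rose by 1.65 and 2 changed by -1.17 and -1.08 (adjusted p = 0.00439, 0.0274 and 0.047), and all 3 were higher in JJN3, by 2.44, 2.65 and 2.92. At MEF2C, a lymphoid and muscle transcription factor, 1 of 7 peaks rose by 2.60 (adjusted p = 6.12e-05). At XRCC5, which encodes a subunit of the Ku complex that joins DNA ends in V(D)J recombination, 1 of 2 promoter peaks changed by -2.82 (adjusted p = 2.17e-07) and the other gave 0.57 (adjusted p = 0.212). Peaks at TCF4 and IKZF1, both B lineage transcription factors, changed by -1.50 and -1.57 (adjusted p = 0.0125 and 0.0446), and peaks at FAM46C and FCRL5 by -1.24 and -1.40 (adjusted p = 0.0417 and 0.0162). A POU2F1 peak rose by 0.83 (adjusted p = 0.0318). Under pomalidomide alone 3 of the 139 peaks were called and under GNE-781 alone 1, the same XRCC5 promoter peak, at -1.67 (adjusted p = 0.0295), while the other gave -0.10 (adjusted p = 0.985).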

How the data were processed

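The authors deposited 1 table of raw counts, whole numbers of reads per peak in all 8 libraries, over the joined peaks of MACS2 (q 0.01, from the table's name). Per the submitters' processing notes, reads were processed on GRCh38 with Bowtie2 2.3.5.1, Trim Galore 0.6.4, MACS2 2.1.1.20160309, cutadapt 2.5, SAMtools 1.10 and R 4.1.2, named without roles. The handling of multi-mapping reads, duplicates and the transposase offset is not given in the sources used here. PCR copies make counting intervals too narrow, and these cover counting error only.

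Peaks whose mean reached 2 CPM were tested in R 4.3.3 by the two-sided quasi-likelihood test of edgeR 4.0.16 with TMM scaling, line and treatment terms and 3 residual degrees of freedom. Benjamini-Hochberg adjustment ran over all 62234 peaks tested. Line calls also needed 2-fold. A model of line by drug gave the line dependence. DESeq2 1.42.0, other scalings, no filter, no line block and omission of each library were tried. The scripts were tested on simulated data. Segment positions came from RefSeq (GRCh38.p14).

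Members and gene lists were chosen with earlier results of these data known. Named peaks were, per locus, the 5 highest and 5 lowest called line differences and the 3 highest mean CPM. To these were added all peaks called under a treatment, the 3 lowest p-values where fewer than 3 were called, and peaks with constant or joining gene symbols. Motif searches were not run.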

Additional observations from a re-analysis of the deposited data

How the results depend on the processing

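The count of members called between the lines was 56, and it stayed between 52 and 63 when each library was left out and between 55 and 60 with other scalings, no filter, no treatment terms or DESeq2. The summed IGH line ratio moved from -0.67 to -0.75 (log2) with library totals alone. For both agents, the 3 members called became 0 without the replicate block of the line, 0 by DESeq2 and 0 to 4 with libraries left out. The labels give no replicate numbers, so the line is the only pairing. Line-specific effects, added after seeing the data, called 4 members for pomalidomide and 2 for GNE-781 in KMS11, and 0 for each in JJN3, where the main counts were 0. Of single peaks, the IGLC7-labelled peak 3′ of the lambda locus turned from 0.11 to -0.07 without the JJN3 library and to -0.08 without the KMS11 library given both agents, in a range of -0.08 to 0.25. The IGHV7-4-1 peak ranged from -2.24 (without the KMS11 pomalidomide library) to 2.6 under pomalidomide and from -1.4 to 0.23 (without the KMS11 DMSO library) under GNE-781. The IGKC peak ranged from -2.15 to 0.18 (without the KMS11 DMSO library) under GNE-781. With 1 effect over both lines none of these peaks was called in these comparisons. When a KMS11 library was left out, its treatment was represented by the JJN3 library alone, and JJN3 held 1 count in all at the IGHV7-4-1 peak. The cause of these shifts was not tested.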
